A study of Caenorhabditis elegans with 2 samples.

Results

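Peaks of an F37B4.10-GFP ChIP-seq experiment whose summits lay at the promoters of protein-coding genes on both strands were examined in whole young adult Caenorhabditis elegans. They were 164 of the 5000 peaks of highest signal in the authors' joint ranked list, which held 115634 peaks over both replicates. A summit was kept when it fell from 1000 bp upstream to 200 bp downstream of an annotated transcript start of at least 1 gene on each strand. Summits closer than 200 bp to a gene for a small stable RNA of the tRNA, snRNA or snoRNA classes were left out. The members were therefore selected on the joint signal and on gene position, and neither is a finding here. Of the 164 members, 46 were also in the authors' conservative thresholded list, a stricter set of joint peaks.

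The study had 1 group of 2 samples, labelled as biological replicates 1 and 2. The worms were of strain OP374, which carries the integrated transgene wgIs374, with F37B4.10::TY1 EGFP 3xFLAG and an unc-119(+) rescue marker in the unc-119(tm4063) background. They were synchronised by bleaching and starvation as L1 larvae and harvested as young adults at 61 hours. Chromatin was sonicated to 200 to 800 bp and precipitated with an antibody against GFP. Both samples carry the transgene, so the tagged copy and the selection marker are shared by everything measured. Whole animals were used, so a peak cannot be assigned to a tissue. The transgene adds copies of its own inserted DNA, and the member nearest to the F37B4.10 gene was 236 kb away. The member nearest to unc-119 was 98.7 kb away. With a single group there was no comparison between conditions, and all values below are descriptions with no test. Intervals are exact 95% binomial intervals and cover counting error only.

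Divergent promoters place the starts of neighbouring genes back to back, so that a single stretch of DNA lies upstream of both. In the compact genome of C. elegans such pairs are frequent, and many broadly expressed genes are arranged this way. Many worm transcripts receive a spliced leader by trans-splicing, so an annotated start can mark the site of leader addition rather than the base where RNA polymerase II began. F37B4.10 is the only tagged protein in the experiment, and the files give the positions of its peaks but no RNA levels.

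The sequences at the highest members are shown because 4 of them contain the same 8-letter run, CATACACT, or its reverse complement AGTGTATG. Each holds the summit base and 50 bases on either side, printed from 5′ to 3′ on the plus strand of ce11 (WBcel235, sequence from RefSeq), and capitals mark that run. The windows are chrIII:10759194-10759294, chrIV:654877-654977, chrIV:4750019-4750119 and chrIII:4475606-4475706, in the order printed.
K01G5.10/tasp-1: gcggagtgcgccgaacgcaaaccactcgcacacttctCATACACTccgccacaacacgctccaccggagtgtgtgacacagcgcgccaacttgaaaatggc
rpl-15/K11H12.8: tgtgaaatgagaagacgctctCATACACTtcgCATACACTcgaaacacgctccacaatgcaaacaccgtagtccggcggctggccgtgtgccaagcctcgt
rpl-20/Y17G9B.5: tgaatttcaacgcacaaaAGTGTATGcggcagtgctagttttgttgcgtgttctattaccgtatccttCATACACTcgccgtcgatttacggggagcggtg
ifet-1/rps-1: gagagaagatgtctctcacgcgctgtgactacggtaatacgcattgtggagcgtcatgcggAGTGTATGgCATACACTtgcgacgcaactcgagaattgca
The run was noticed in these sequences after they had been read, so its count in them is not evidence of anything beyond them. The members K01G5.10/tasp-1, rpl-15/K11H12.8 and rpl-20/Y17G9B.5 rank 1, 2 and 3 among the 164, and ifet-1/rps-1 ranks 9. The run occurred 2 times in 3 of the 4 windows, with both copies on the plus strand at rpl-15 and on opposite strands at rpl-20 and ifet-1/rps-1. All copies began from 32 bp to the left of the summit to 20 bp to its right. None of the 139 members below the 25 highest held it, for which the exact interval reaches 2.62%. It was in 1 of 1133 windows at peaks of 1-strand promoters, in 13 of all 5000 peaks (0.26%) and in 36 of 21396 tiles of the same length cut from all both-strand promoter sequence (0.168%). At least 2 copies were found in 4 of the 5000 peak windows, 3 of them members, and in 2 of the 21396 tiles.

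The next sequences are the other members among the 8 highest whose windows could be printed by the same rule. Capitals mark GAGACGC, an element described at promoters of broadly expressed worm genes, the GC box GGGCGG, and GAANNTTC, the paired unit of heat shock elements, each on either strand. The windows are chrIII:13643685-13643785, chrIII:1619067-1619167, chrII:11759428-11759528 and chrIII:4899811-4899911, in the order printed.
drr-2/set-16: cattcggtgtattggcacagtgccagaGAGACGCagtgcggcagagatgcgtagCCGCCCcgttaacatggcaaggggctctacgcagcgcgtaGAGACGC
Y22D7AL.10/hsp-60: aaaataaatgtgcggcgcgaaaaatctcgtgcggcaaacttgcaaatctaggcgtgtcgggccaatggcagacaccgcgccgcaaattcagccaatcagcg
F44E5.4/F44E5.5: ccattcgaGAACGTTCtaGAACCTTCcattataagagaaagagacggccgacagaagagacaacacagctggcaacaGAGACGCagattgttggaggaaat
nhl-2/tag-340: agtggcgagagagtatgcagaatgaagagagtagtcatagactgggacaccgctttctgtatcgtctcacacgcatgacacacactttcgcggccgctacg
The window between drr-2 and set-16 held 2 copies of GAGACGC and 1 GC box. The window between F44E5.4 and F44E5.5, which both encode heat-inducible Hsp70 chaperones, held 2 adjacent copies of GAANNTTC and 1 GAGACGC. The windows of Y22D7AL.10/hsp-60 and nhl-2/tag-340 held none of these letters.

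The authors' signal value per peak, whose scale is not given in the sources used here, is used below both for the joint list and for each replicate's own list. K01G5.10/tasp-1 had a joint signal of 216, with 72.5 in replicate 1 and 140 in replicate 2. The member between rpl-15, a large-subunit ribosomal protein gene, and K11H12.8 had a joint signal of 195, with 85.6 and 113 in the replicates. The member between rpl-20, another large-subunit gene, and Y17G9B.5 had 194, with 95.6 and 109. Replicate 2 was the higher in all 3. drr-2, a translation initiation factor homologue, was paired with set-16, a histone H3 lysine 4 methyltransferase of the MLL family, with a joint signal of 145 from 84.6 in replicate 1 and 54.8 in replicate 2. Y22D7AL.10/hsp-60 stood at 140, with 69.8 and 71.0, and hsp-60 encodes the mitochondrial chaperonin. F44E5.4/F44E5.5 stood at 136, with 69.4 and 63.5. nhl-2/tag-340 stood at 125, with 62.7 and 67.4, and nhl-2 encodes an RNA-binding TRIM-NHL protein. These 7 were the members among the 100 highest peaks of the whole list.

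The other 18 of the 25 highest members ran from a joint signal of 111 down to 82.2. Their replicate values were 28.0 to 66.7 in replicate 1 and 30.3 to 80.0 in replicate 2, so neither replicate was higher throughout. spd-5, the scaffold of the centrosome matrix, and npp-6, a nuclear pore subunit, shared the member at 111. ndk-1, a nucleoside diphosphate kinase gene, and F25H2.6 shared one at 105, where the ratio between replicates was furthest from equal among the 25, at 28.0 and 80.0. larp-1, encoding a La-related RNA-binding protein, and wip-1 shared one at 97.7, with the opposite lean of 66.7 and 30.3. Others were at ecps-1/atx-2 (96.99), egrh-2/lep-2 (94.7), rheb-1/spk-1 (87.5), where rheb-1 encodes the small GTPase upstream of TOR and spk-1 an SR protein kinase, and iff-2/F54C9.14 (83.6), where iff-2 encodes eIF5A. mzt-1/enu-3.3 closed the set at 82.2. All 25 were in the conservative list, but the share over all peaks of like rank is not given here.

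**Figure D1:**
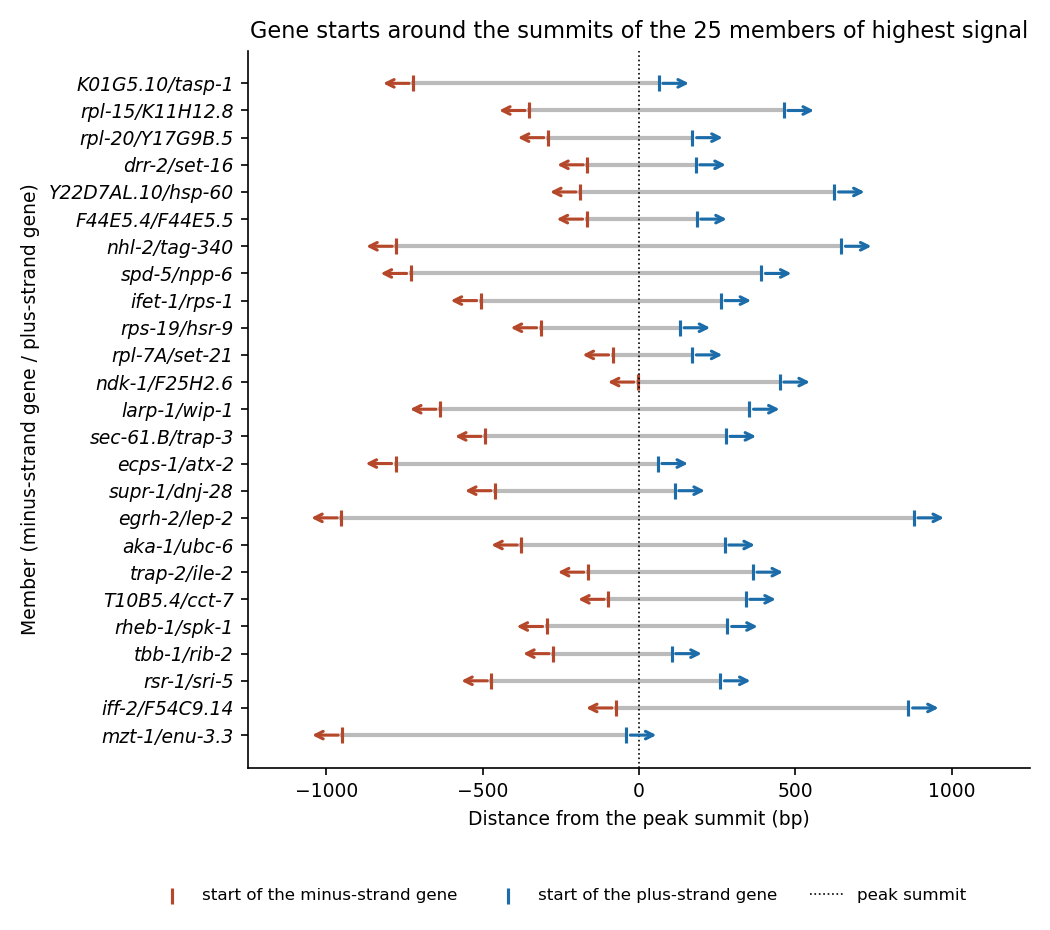
Gene starts around the summits of the 25 members of highest signal, in order of signal from the top. Each row is 1 member, the x axis is the distance from the summit in bp, ticks with arrows are the nearest start on each strand and its direction, and the grey bar is the sequence between the starts. The summit lay between the starts in all but mzt-1/enu-3.3.

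Over all 164 members the joint signal had a median of 60.9, with quartiles of 55.3 and 70.3 and a range from 52.2 to 216. The 1133 peaks at promoters of 1 strand reached 321, around a median of 58.6. The highest peak of all 5000 reached 1494. The rule ended at 52.2, with Y45G5AM.9/algn-5 the last member inside at rank 4983 and F55C12.6/F55C12.2 the first comparable peak outside at rank 5003. Their signals of 52.19 and 52.15 were nearly equal.

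The conservative list held 28.0% of the members (46 of 164, interval 21.3 to 35.6%). It held 16.3% of all 5000 peaks, 17.7% of those at 1-strand promoters (interval 15.5 to 20%) and 13.4% of those outside promoters. The share was higher, 40.2% (107 of 266, interval 34.3 to 46.4%), at peaks near tRNA, snRNA or snoRNA genes. Conservative peaks were matched to the ranked list by their intervals and 813 of the 843 are among the 5000 highest, so these shares are not independent of the ranking. Of the 34 members within the first 500 ranks, 32 were in the list, and the exceptions were gmps-1/cap-2 and nspb-8/nspb-9. The share over all peaks of these ranks is not given here, so this count does not set the members apart. gmps-1/cap-2 had the highest signal outside the list at 77.2, and replicate 2's list had no peak there. The lowest-ranked conservative member was rec-8/mex-5, at rank 2248 with a signal of 59.7. The authors' other thresholded joint list held 54 members (32.9%), 42 of them shared with the conservative list. It held 17.98% of all 5000 peaks, 18.6% of those at 1-strand promoters and 42.5% of those near tRNA, snRNA or snoRNA genes.

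Peaks at both-strand promoters made up 3.28% of the 5000 (interval 2.80 to 3.81%), while the windows that define them covered 2.32 Mb, or 2.33% of the sequence of the 6 chromosomes. They numbered 70.7 per Mb of such windows, against 47.7 per Mb at 1-strand windows and 46.6 per Mb outside promoters. The ratio to 1-strand windows was 1.48. Counting conservative peaks alone, the densities were 19.8, 8.42 and 6.24 per Mb. Both-strand promoters held 7 of the 100 highest peaks (interval 2.86 to 13.9%), 14 of the next 150 (9.33%, interval 5.20 to 15.2%) and 13 of the next 250 (5.2%, interval 2.80 to 8.73%). Beyond rank 500 and up to rank 5000 the share per interval of ranks was between 2.1 and 3.4%. Below rank 5000 it stayed between 2.17 and 2.41%, close to the share of sequence.

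**Figure D2:**
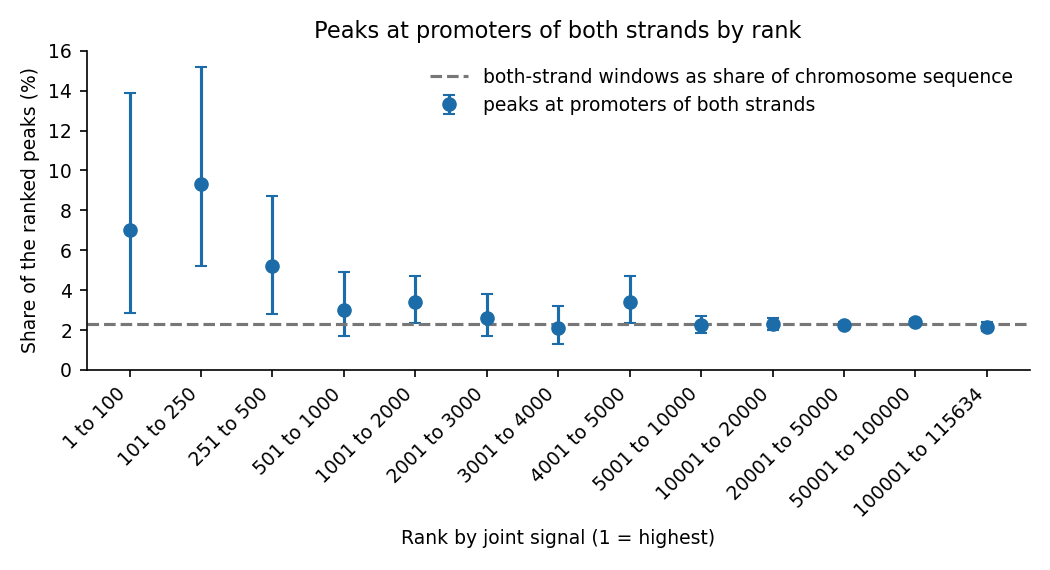
Share of the ranked peaks with a summit at promoters of both strands, in successive intervals of rank by joint signal. Points are percentages with exact 95% binomial intervals that cover counting error only. The dashed line is the 2.33% of chromosome sequence in such windows, with sequence within 200 bp of tRNA, snRNA or snoRNA genes left out. The first 3 points, 7.0, 9.33 and 5.2%, lie above the line and those beyond rank 5000 lie on it.

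Chromosome III held 39, or 107 per Mb of both-strand promoter sequence, and chromosome IV 34, or 81.7 per Mb. Chromosomes II, V and I held 27, 37 and 23, at 64.9, 62.4 and 56.6 per Mb. The X chromosome held 4, at 31.7 per Mb, of which trap-2/ile-2 (89.9) was the highest. Only 0.717% of X, with sequence near small RNA genes left out, was both-strand promoter sequence, so its rate rests on few members and little sequence. The density at 1-strand promoters was 49.8 per Mb on III, 46.4 on IV, 48.5 on II, 40.3 on V, 54.4 on I and 51.96 on X. Both-strand promoters thus had the higher density on 5 chromosomes, by little on I, and the lower on X. Differences between chromosomes were not tested.

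Both replicates gave a peak at most members. Replicate 1's ranked list, of 58046 peaks, overlapped 156 of the 164 and replicate 2's, of 63045 peaks, overlapped 159. Both overlapped 151 (92.1%), which is close to the 89.1% of all 5000 peaks and the 89.3% at 1-strand promoters. No member lacked both. Across the members found in each, the signal had a median of 27.5 in replicate 1 (range 12.6 to 95.6) and 34.9 in replicate 2 (range 17.8 to 140). Replicate 1 was the higher at 34 of 151 members, and the ratio of replicate 1 to replicate 2 had a median of 0.809 and a range from 0.252 to 2.27. At 1-strand promoters the same ratio had a median of 0.823. The joint signal was close to the sum of the replicates' values, at a median of 1.01 times that sum, so a member low in 1 replicate had to be high in the other to be selected. cct-8/Y55F3AR.2 was the most unequal, with 12.6 in replicate 1 and 50.03 in replicate 2.

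Each replicate also had a short thresholded list of its own, of 81 and 99 peaks. Replicate 1's overlapped 10 members (6.10%), against 1.58% of all 5000 peaks and 1.41% of those at 1-strand promoters. Replicate 2's overlapped 9 members (5.49%), against 1.90% and 2.03%. Peaks near tRNA, snRNA or snoRNA genes had shares like those of the members, at 6.02 and 5.26%. The 5 members in both lists were K01G5.10/tasp-1, rpl-15/K11H12.8, rpl-20/Y17G9B.5, Y22D7AL.10/hsp-60 and nhl-2/tag-340. How many of all 5000 peaks were in both is not given here.

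**Figure D3:**
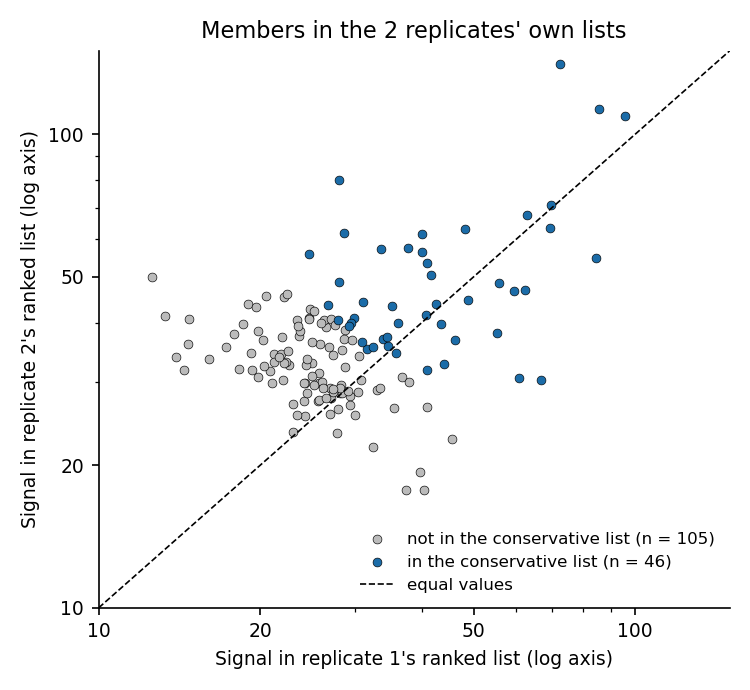
Signal of the peak overlapping each member in the ranked list of replicate 1 (x axis) and replicate 2 (y axis), both on log axes, for the 151 members found in both. Each point is 1 member, blue where it is in the conservative list, and the dashed line marks equal values. The 46 conservative members reach 95.6 in replicate 1 and 140 in replicate 2, and 34 of the 151 points lie below the line.

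Nearly all members lay at head-to-head genes. In 163 of 164 the start of the minus-strand gene was to the left of that of the plus-strand gene. The exception was Y37D8A.25/Y37D8A.2 (signal 61.6, with 19.0 in replicate 1 and 43.7 in replicate 2), whose transcripts overlap by 60 bp at their starts. Windows of this size force most pairs into that arrangement, and 99.4% of the tiles had it too. The starts of the 163 were 12 to 1893 bp apart, with a median of 650 bp and quartiles of 380.5 and 954 bp. The tiles had a median of 707 bp. Among conservative members the shortest gaps were at rpl-7A/set-21 (254 bp, signal 107), his-60/his-59 (257 bp, 77.8) and R05D3.8/rfp-1 (295 bp, 77.8). The longest were at egrh-2/lep-2 (1831 bp, 94.7), mif-4/ipla-6 (1659 bp, 66.5) and nhl-2/tag-340 (1423 bp, 125).

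The summit lay between the starts in 118 of 163 head-to-head members (72.4%, interval 64.9 to 79.1%), and the tile centres did so in 71.0%. In the conservative members this share was 39 of 46 (84.8%, interval 71.1 to 93.7%), and in the others 67.5% (interval 58.2 to 75.9%). Summits were a median of 161.5 bp from the midpoint of the pair, or 114 bp in conservative members, and tiles 191 bp. Several of the highest summits were almost exactly midway. Those of rheb-1/spk-1, drr-2/set-16 and F44E5.4/F44E5.5 were 6, 8 and 8.5 bp from the midpoint. By contrast the summit of ndk-1/F25H2.6 was 3 bp upstream of ndk-1 and 450 bp upstream of F25H2.6. The nearer start was on the plus strand in 86 members and on the minus strand in 78.

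By annotation 81 summits were intergenic, 38 in coding sequence, 17 in a 5' UTR, 17 in an intron and 11 in another exon, which includes exons of noncoding genes. None was in a 3' UTR. Of the 1133 peaks at 1-strand promoters, 403 were intergenic and 327 in coding sequence, and of all 5000 peaks 1467 and 1699. Of the 46 conservative members, 31 were intergenic and 2 in coding sequence. A noncoding RNA gene of unspecified class lay within 200 bp of 18 members (11.0%), against 9.80% of peaks at 1-strand promoters. A piRNA gene lay within 200 bp of 2 members (1.22%), against 0.88% of all 5000 peaks.

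The members' windows held the promoters of 338 genes, 1.69% of 19973 protein-coding genes. Of these, 326 were the nearest on their strand, in 163 distinct pairs. The other 12 were further genes, since 12 members lay in the windows of 3 genes. The background for each gene list below is this 1.69%, or 5.98% of the 5649 genes that have both-strand promoter sequence as long as a tile. Peaks at 1-strand promoters had 5.57% of all genes. There nuclear pore genes had 13.3%, DNA replication 11.7%, cell cycle 10.8%, secretion 9.28%, ribosomal protein 8.64% and chaperone genes 6.06%. The ubiquitin, small RNA, collagen, F-box, lectin, histone and chemoreceptor lists were below 5.57%. A list share above background was thus not particular to the members. Lists were matched on gene symbols and miss some genes of their kind, so counts and rankings hold for the matched genes only. Only W03C9.5/mex-1 held 2 members, with joint signals of 69.8 and 61.1. mex-1 encodes a zinc finger protein of the early embryo. The peak near mex-1 (157 bp upstream) was found only in replicate 2's list (51.01), and the peak 199 bp upstream of W03C9.5 was found in both (24.96 and 36.40). Of 56 members with exactly 1 gene on a list, the listed gene was the nearer in 24. Every member is shared by 2 or 3 genes, so a count for a list does not say which of them the peak belongs to.

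Ribosomal protein genes accounted for 8 of 81 (9.88%, or 16% of those with such windows), and 6 of their 8 members were in the conservative list. Their median joint signal was 107, against 60.9 for all members. After rpl-15 and rpl-20, rps-1, a small-subunit gene, was paired with ifet-1, an eIF4E-binding translational repressor. This member stood at 108, with 59.4 in replicate 1 and 46.6 in replicate 2. rps-19/hsr-9 stood at 107, with 40.02 and 61.59, and rpl-7A/set-21 at 107, with 48.13 and 63.04. rps-15/F36A2.9 (77.3), pab-1/rpl-30 (64.0) and rpl-12/lin-54 (62.6) were lower, and replicate 2 was the higher in each. Summits lay 84 to 373 bp upstream of the 6 ribosomal protein starts of conservative members. At rpl-12 the summit was 35 bp upstream and at rpl-30 it was 93 bp downstream of the start.

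Chaperone genes had the highest share of any list, 11 of 66 (16.7%, or 30.6% of those with such windows) at 10 members, 5 of them conservative. F44E5.4 and F44E5.5 are not in this count, since the list was matched on gene symbols. Among the matched genes only dnj-28 and dnj-13 had the start nearer to the summit, and elsewhere another gene's start was nearer. At Y22D7AL.10/hsp-60 the summit lay 188 bp from the start of Y22D7AL.10 and 625 bp from that of hsp-60. After hsp-60 came dnj-28, a DnaJ-domain co-chaperone gene, paired with supr-1, at 95.4 with 37.7 in replicate 1 and 57.4 in replicate 2. cct-7, a subunit of the cytosolic chaperonin CCT, was paired with T10B5.4 at 88.3, with 41.6 and 50.5. hsp-90, the cytosolic Hsp90 gene, was paired with C47E8.4 at 70.0, with 44.0 and 32.8, and dnj-13 was paired with F54D5.9 at 64.2, with 29.3 and 39.3. The 5 members that were not conservative, at dnj-19, cct-8, pfd-1, dnj-17 and the pair of dnj-2 and pfd-4, were between 53.97 and 59.08. The median over the list's members, 61.6, was thus close to that of all members.

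Nuclear pore and transport genes accounted for 5 of 45 (11.1%, or 18.5% of those with such windows), at 5 members of which 3 were conservative. They were led by npp-6 (111) and followed by the importin alpha gene ima-1 (73.9, with 40.9 and 31.8) and the exportin gene xpo-1 (70.04, with 29.97 and 40.85). Secretion and trafficking genes accounted for 7 of 97 (7.22%, or 13.5% of those with such windows). sec-61.B, a subunit of the translocon of the endoplasmic reticulum, and trap-3, of the translocon-associated complex, shared 1 promoter with a joint signal of 97.1, from 48.9 and 44.7. trap-2, from the same complex, was paired with ile-2 at 89.9, with 33.6 and 57.2. rab-5, an early endosome GTPase gene, was at 68.7. Of the 6 members at genes of this list, 2 were conservative.

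Histone genes accounted for 6 of 72 (8.33%), as 3 pairs in which both neighbours are histones. Most histone genes, 65, have such windows, and the share of these at members was 9.23%, against 5.98% over all genes with such windows. his-60/his-59 stood at 77.8, with 55.3 in replicate 1 and 38.0 in replicate 2. his-35/his-41 stood at 61.9, with 40.3 and 17.8, and his-2/his-1 at 52.7, with 39.7 and 19.4. Replicate 1 was the higher in all 3, although it was the higher in 34 of 151 members. Each summit was in coding sequence, and repeated 36-mers made up 21.2% of the his-60/his-59 interval and 25.3% of the his-2/his-1 interval, but none of the his-35/his-41 interval. Reads from near-identical histone copies may be shared where such repeats occur, and how they were assigned is not given in the sources used here.

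Cell cycle and spindle genes accounted for 6 of 111 (5.41%), with spd-5 (111), the beta-tubulin gene tbb-1 (86.1, with 40.8 and 53.6) and the kinetochore gene knl-3 (66.1) highest. Chromatin regulators accounted for 4 of 96 (4.17%), with set-16 (145), set-21 (107) and lin-54 (62.6), a DNA-binding subunit of the DREAM repressor complex, highest among the matched genes. The list did not match epc-1 (70.7, conservative) and ash-2 (67.5), whose members were above that of lin-54. set-21 and lin-54 were each paired with a ribosomal protein gene. Germline and meiosis genes accounted for 5 of 117 (4.27%), with atx-2, the ataxin-2 homologue (96.99, with 39.99 and 56.34), mex-1 (69.8) and the pair of rec-8, a meiotic cohesin gene, and mex-5 (59.7) highest. Splicing and RNA processing genes accounted for 7 of 126 (5.56%), and none of the genes matched by the list was at a conservative member. They were led by rsp-2/rsp-1 (69.1, found only in replicate 1), pab-1 (64.0) and prp-19 (61.8, found only in replicate 2). Ubiquitin and proteasome genes accounted for 5 of 103 (4.85%), with ubc-6 (94.4, from 55.8 and 48.6), pbs-1 (63) and ubc-12 (59.2) highest. Of genes with such windows, the lists of this paragraph had 10.5, 15.4, 10.6, 10.8 and 8.62% at members, in the order given.

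DNA replication and repair genes accounted for 4 of 60 (6.67%), none of the matched genes at a conservative member. They were led by lig-4 (63.7, a further gene at cux-7/C07H6.2), mcm-3 (58.2) and lig-1 (54.4). The genes dvc-1 (73.9, at a conservative member) and hpr-17 (66.1) were not matched by this list. Lipid metabolism genes accounted for 4 of 103 (3.88%), led by mboa-2 (64.0), ech-5 (56.0) and dgat-2 (54.6), and autophagy and lysosome genes for 3 of 85 (3.53%), at asp-6/asp-12 (54.5) and atg-3 (52.3). Of genes with such windows, the replication, lipid and autophagy lists had 11.1, 16.7 and 11.1% at members. F-box genes accounted for 6 of 358 (1.68%), led by sdz-37 (65.2), fbxc-20 (59.0) and fbxa-108 (54.6). C-type lectin genes accounted for 4 of 240 (1.67%), led by clec-260 (65.2), clec-178 (57.4) and clec-181 (56.3). These last 2 shares were near the background, as were those among genes with such windows, at 5.13 and 4.88% against 5.98%. Chemoreceptor genes accounted for 5 of 1364 (0.367%, or 1.68% of those with such windows), at sri-5 (84.4), srh-236/srh-113 (75.3), sri-67 (65.2) and srg-13 (52.6). The sri-5 member is shared with rsr-1, an SR-related splicing gene, and is the only conservative one. Translation factors (2 of 41), respiratory chain genes (2 of 41), small RNA pathway genes (2 of 59), transcription factors (2 of 150), nuclear hormone receptors (2 of 273) and homeobox genes (1 of 87) had 1 or 2 genes each. In the same order, their shares of genes with such windows were 8.70, 8, 6.90, 6.90, 4.88 and 9.09%. The gene drr-2 (145, at a conservative member) was not matched by the translation factor list. No gene was found among 180 cuticle collagens, 82 genes of the transcription machinery, 70 of the mitochondrial ribosome and 31 tRNA synthetases.

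**Figure D4:**
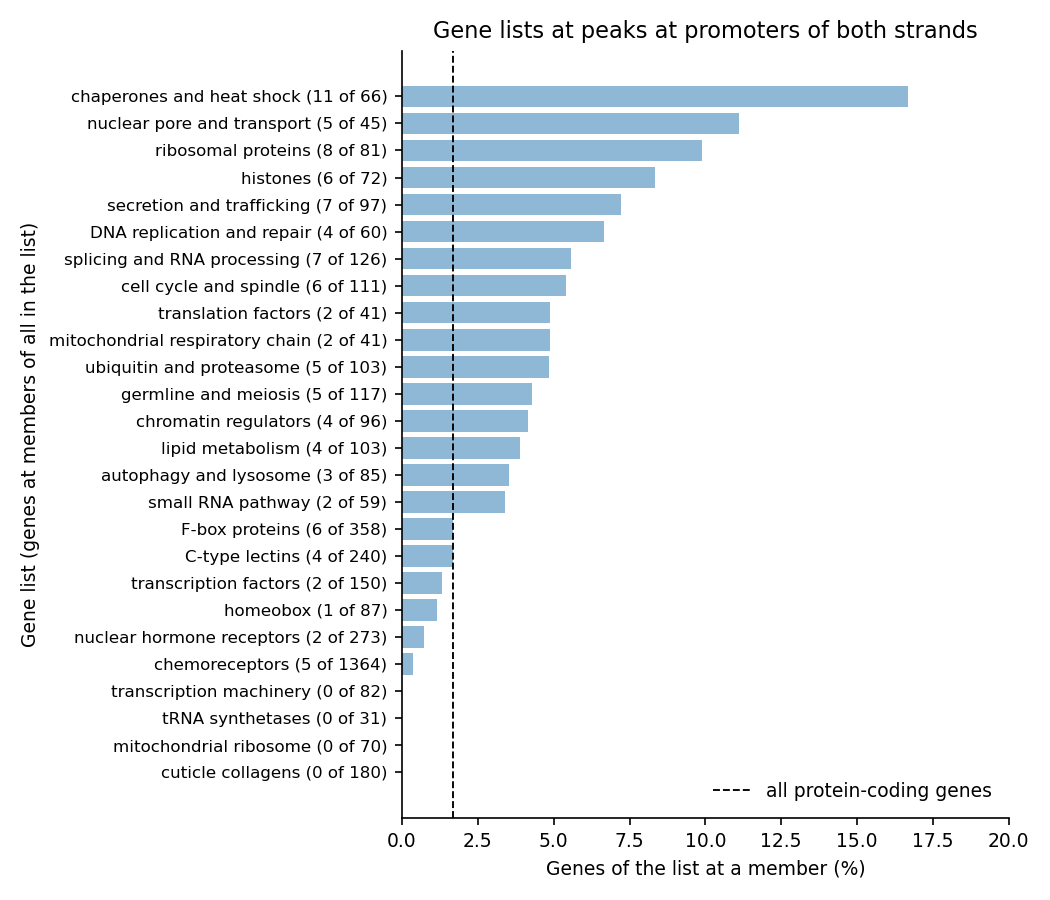
Share of the genes of each of 26 lists whose promoter window held a member summit, with the numbers of genes beside each name. Bars are percentages of all genes in the list, and the dashed line is the 1.69% of all protein-coding genes. Lists differ in how many of their genes have both-strand promoter sequence, which bars and line do not take into account. Chaperone genes reach 16.7% and 4 lists have no gene at a member.

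The DNA at member summits was richer in G and C than promoter sequence at large. Within 50 bp of the summit the median GC content was 48.5% in members, 51.5% in conservative members, 47.5% at peaks of 1-strand promoters and 46.5% at peaks outside promoters. The tiles of both-strand promoters had 34.7%. The higher GC was thus shared by peaks of every class. In members the mean was 49.3% in the 25 bp to the right of the summit and 36.1% in the 25 bp that ended the window 500 bp to its left. Whether library preparation or sequencing favoured GC-rich DNA was not tested, since no control track was used here.

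**Figure D5:**
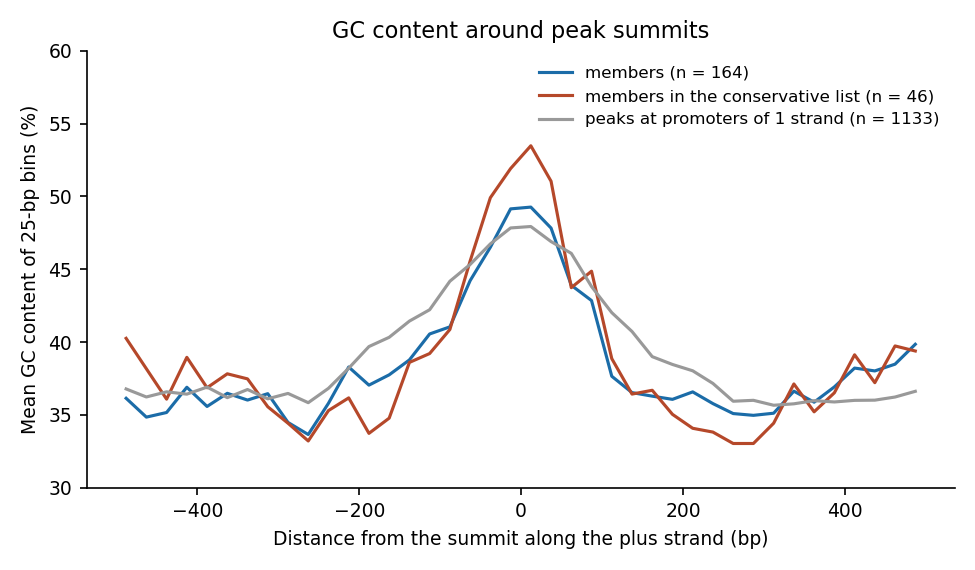
Mean GC content in bins of 25 bp against distance from the summit along the plus strand, for the 164 members, the 46 conservative members and the 1133 peaks at promoters of 1 strand. Lines are means over peaks. All 3 peak near the summit, at 49.3, 53.5 and 47.9% in the bin just to its right.

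Short sequence patterns were compared with the same tiles. Letters were searched on both strands within 50 bp of the summit, and a match is a description of the sequence, not a binding site. GAGACGC was in 11 of 164 members (6.71%, interval 3.39 to 11.7%), against 3.44% of peaks at 1-strand promoters, 2.58% of all 5000 peaks and 1.26% of tiles. In the conservative members it was in 2 of 46 (4.35%), which are the 2 printed above. The GC box GGGCGG was also in 11 members (6.71%), against 6.62% at 1-strand promoters and 1.87% of tiles. The E-box CACGTG was in 8 members (4.88%), against 3.00% and 1.86%. The looser CANNTG, which includes every CACGTG, was in 40.2%, against 35.1% and 32.1%.

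Patterns rich in A and T were less frequent in members than in tiles. A run of 7 T was in 3.66% of members, against 8.65% of peaks at 1-strand promoters and 19.4% of tiles. The TATA box TATAAA was in 6.71%, against 4.59% and 13.3%, and in none of the 46 conservative members, for which the exact interval reaches 7.71%. The GATA site TGATAA was in 3.05%, against 4.94% and 10.6%, and TTTGAA, a pattern of cell cycle promoters, in 14.6%, against 14.1% and 27.9%. The splice acceptor pattern TTTCAG was in 14.6%, against 14.5% and 20.4%. CCAAT was in 15.2%, against 17.8% and 18.2%. GAANNTTC was in 4.27%, against 4.32% and 7.23%, and in 5 of the 46 conservative members. The difference in GC content between peaks and tiles moves with these shares, and its part in them was not tested.

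Repeated sequence was found at few members. Repeated 36-mers made up at least 50% of the interval in 8 members (4.88%), against 6.16% of all 5000 peaks, and 132 members had none. The genome sequence was soft-masked at the summit of 32 members (19.5%), against 20.1% of all 5000.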

How the data were processed

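Peak lists from ChIP-seq of 1 group of 2 biological replicates were used. Per the README files deposited with the samples, peaks on ce11 were derived from filtered alignments and a control library, and ranked by irreproducible discovery rate (IDR). For the aligner, the peak caller and the scale of the values the sources used here give nothing. The number of reads is likewise not stated, and depth is therefore unknown. The deposited signal of each peak is the authors' own value. The lists' deposited −log10 of the IDR was used to check the thresholded lists: no member past an IDR of 0.01 was missing from the conservative list, while 59 of the 5000 peaks were. How the thresholded lists were made is not further described. A further 16 columns, which repeat values for single inputs in both joint lists, were not used.

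Starts came from the Ensembl annotation of WBcel235 (release 115) and sequence from the RefSeq genome of the same assembly. Peaks were ranked by joint signal, summits were placed in promoter windows, and the nearest start on each strand was taken as the pair, written minus-strand gene first. Where lists differ in intervals, overlap means at least 1 shared base. Promoter sequence was cut into tiles as long as the summit windows (50 bases on each side) for comparison of position and sequence. Gene lists (26) were matched on symbols and 22 sequence patterns on both strands. CACGTG is contained in CANNTG, and 1 pattern, CATACACT, was added after the sequences were read. The members and lists were chosen with earlier results of these data known, and no test was made. Named were the 25 members of highest signal, the 3 highest in each list with at least 3 genes at members, the 3 shortest and 3 longest gaps among conservative members, the overlapping pair, the pair with most members and those at the edge of the 5000. A few others were named after their values were seen. Sequences are those of up to 8 of the 25, off chromosome I and with no annotated UTR in the window. The classification was checked on simulated starts and peaks. Python 3.11.15, pandas 2.3.3, numpy 2.4.6, scipy 1.17.1 and matplotlib 3.10.9 were used.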

Additional observations from a re-analysis of the deposited data

How the results depend on the processing

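The number of members depended on the size of the windows and of the ranked set. With the 2500 highest peaks there were 100 members (4.0% of the peaks), with 46% in the conservative list, a median signal of 67.5, 79.8% of summits between the starts, a GC content of 49.5% and a density ratio to 1-strand windows of 1.80. With the 10000 highest there were 276 (2.76%), with 17.03%, a median signal of 53.8, a GC content of 46.5% and a ratio of 1.20. With promoters from 500 bp upstream to 100 bp downstream there were 67 members (1.34%), all head-to-head (100%), with 35.8% in the conservative list, a median gap of 383 bp, 80.6% of summits between the starts and a ratio of 1.85. With promoters reaching 2000 bp upstream there were 334 (6.68%), with a median gap of 1353 bp and a ratio of 1.19. Taking the most upstream start of each gene gave a ratio of 1.56. GC content within 100 bp was 44.8%. The ratio thus stayed above 1 but fell by more than the gap between replicates in wider windows and longer lists.

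Ranking by 1 replicate's own list, that is without the other replicate, gave 142 to 162 members (2.84 to 3.24%), ratios of 1.31 to 1.40, median signals of 30.5 to 36.8 and median gaps of 611 to 666 bp. Of these lists 29.0 to 31.0% overlapped the conservative list, 73.9 to 74.5% of summits lay between the starts, 99.3 to 99.4% of pairs were head-to-head, and GC content was 48.5% in both. The other joint ranked list, the absence of a small RNA filter and a 500 bp filter kept all 9 of these results within set limits. The limit was 1.5 times for the number of members and the binomial interval for percentages. For the remaining results it was the standard deviation of the single-replicate values. Requiring 50% of each member to be covered left 90.9% with a peak in both replicates. Of the 25 highest members, 15 overlapped a member with the narrower promoters, 23 without replicate 1 and 24 or 25 under each of the other alternatives. Pattern shares changed with the width searched in 20 of 44 values, and no gene list count moved by more than 1.5 times when the nearest starts alone were used. Depth is unknown, so it cannot be said which low members are limited by it.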
